A study of Caenorhabditis elegans
Pristionchus pacificus with 6 samples.

Results

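The mitochondrial genome of Caenorhabditis elegans encodes 7 subunits of respiratory complex I, the NADH dehydrogenase of the electron transport chain, and their transcripts are described here in dissected intestine. The genes are nduo-6 (WBGene00010957), ndfl-4 (WBGene00010958), nduo-1 (WBGene00010959), nduo-2 (WBGene00010961), nduo-4 (WBGene00010963), nduo-3 (WBGene00010966) and nduo-5 (WBGene00010967). They were taken as all mtDNA-encoded complex I subunits, by identifier, and make up 7 of the 73268 genes in the table. All 7 passed the filter on low counts, as did 8309 C. elegans genes in total. The table does not pair identifiers with symbols, so the names are those given with the definition of this gene set. In the order of the table the 7 genes stand at places 3, 4, 11, 16, 25, 34 and 35. These are the places of ND6, ND4L, ND1, ND2, ND4, ND3 and ND5 among the 36 mitochondrial genes of RefSeq (assembly WBcel235).

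RNA came from anterior intestines of adult hermaphrodites grown at 20 °C and dissected 72 hours after egg lay. Control animals carried cdk-2::ZF::GFP, a tagged copy of a cell cycle kinase gene, and the mutation zif-1(gk117). CDK-2gutminus animals carried the same tagged gene and zif-1(gk117) and, in addition, asp-1p::vhhGFP4::zif-1, in which the asp-1 promoter drives a nanobody against GFP joined to ZIF-1. ZIF-1 is an adaptor that brings bound proteins to degradation, and the design text describes the intestine of this strain as having reduced ploidy. Each group had 3 libraries of pooled lysate, and each lysate received an equal amount of lysate from intestines of another nematode, Pristionchus pacificus, dissected at 96 hours, as a spike-in. Separate cultures behind the 3 libraries of a group are not stated in the labels. All p-values therefore reflect only how these libraries spread, and that spread may be technical.

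Complex I takes electrons from NADH, passes them to ubiquinone and pumps protons across the inner mitochondrial membrane. Its catalytic arm is built from nuclear-encoded subunits, while the mtDNA-encoded subunits form the core of the membrane arm. The products of nduo-2, nduo-4 and nduo-5 are the large antiporter-like subunits of that arm. Those of nduo-3, nduo-6 and ndfl-4 are small membrane subunits between the antiporter-like part and the catalytic arm, and that of nduo-1 lies beside the ubiquinone pocket. The mtDNA genes of this nematode all lie on the same strand and are transcribed into long precursors that are cut into shorter transcripts. In intestine, a tissue of high metabolic load, mitochondria supply much of the energy for digestion and yolk production.

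Libraries held 9432973 to 15874554 C. elegans counts and 1761793 to 4060591 P. pacificus counts, where the first 46958 rows of the table were taken as C. elegans. CDK-2gutminus libraries held more C. elegans counts than any control library. Number 3 of both groups stood apart: it held 2.78 C. elegans counts per P. pacificus count in either group, against 4.51 to 5.35 in numbers 1 and 2. Every value per spike-in count carries this difference. In bulk tissue, fewer cells of a type and less RNA per cell cannot be told apart. Markers of intestine and of other tissues, and the level of cdk-2 itself, were not analysed here, because identifiers were not paired with symbols.

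As a share of all C. elegans counts, the 7 transcripts did not move together. nduo-6 and nduo-3 rose in CDK-2gutminus, nduo-5 fell, and the other 4 did not pass the test (edgeR quasi-likelihood test with Benjamini-Hochberg adjustment over 8309 genes, threshold 0.05). Of all tested genes, 22% were called higher and 3.61% lower on this scale, so 2 of 7 called higher is near the background. The median log2 fold of the 7 genes was 0.17, and the median over all genes was 0.50. Groups did not overlap for 4 of the 7 genes, where the same held for 45.5% of all genes.

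nduo-5, which encodes the largest antiporter-like subunit, gave the clearest difference. It stood at 372, 337 and 325 counts per 1000000 C. elegans counts (CPM) in control libraries 1, 2 and 3 and at 220, 208 and 200 in the CDK-2gutminus libraries. Every CDK-2gutminus library lay below every control, and the values within a group were close. The mean fell from 344 ± 24.6 to 209 ± 10.2 CPM (SD, n = 3), a fold of 0.608. On the log2 scale it was -0.72 ± 0.11 (SE; edgeR adjusted p = 0.00314). This call held whichever of the 6 libraries was left out, with log2 folds from -0.76 to -0.66.

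The other antiporter-like subunits showed no detectable change on this scale. nduo-4 stood at 220, 189 and 192 CPM in control and at 201, 184 and 194 in CDK-2gutminus, so the groups overlapped. Its log2 fold was -0.06 ± 0.12 (SE; edgeR adjusted p = 0.784). nduo-2 stood at 81.2, 71.3 and 55.8 in control and at 60.8, 61.1 and 61.7 in CDK-2gutminus. The control libraries of nduo-2 spread widely around the 3 nearly equal CDK-2gutminus values, and the log2 fold was -0.18 ± 0.16 (SE; edgeR adjusted p = 0.467).

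Among the small membrane subunits, nduo-6 had the most counts of all 7 transcripts. It held 2208, 1900 and 2297 CPM in control and 2940, 2712 and 2981 in CDK-2gutminus. All CDK-2gutminus libraries lay above all controls. The mean rose from 2135 ± 209 to 2878 ± 145 CPM (SD, n = 3), a fold of 1.35. On the log2 scale it was 0.43 ± 0.12 (SE; edgeR adjusted p = 0.0303). The call was lost in 5 of the 6 fits that each left out 1 library and kept without control replicate 3 (edgeR adjusted p = 0.00796). Without control replicates 1 and 2 in turn the adjusted p was 0.0553 and 0.0905. It was 0.114, 0.0829 and 0.106 without CDK-2gutminus replicates 1, 2 and 3, while the log2 fold stayed between 0.35 and 0.49.

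nduo-3 had few counts, 149 to 476 per library. It stood at 15.8, 20.4 and 19.5 CPM in control and at 30.0, 27.9 and 38.0 in CDK-2gutminus, with no overlap. The mean rose from 18.6 ± 2.46 to 32.0 ± 5.31 CPM (SD, n = 3), a fold of 1.72. On the log2 scale it was 0.78 ± 0.19 (SE; edgeR adjusted p = 0.0218). Its log2 fold lay between 0.64 and 0.87 when single libraries were left out. The call was kept without control replicate 2 or 3, at an adjusted p of 0.0215 and 0.0325. It was lost without control replicate 1 (0.0715) and without CDK-2gutminus replicate 1 (0.0551), 2 (0.0503) or 3 (0.0887).

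ndfl-4, the shortest member, was counted only 28 to 94 times per library, where counting error alone is 18.9% at the lowest count. It stood at 3.71, 5.34 and 2.79 CPM in control and at 5.92, 6.84 and 6.30 in CDK-2gutminus. The groups did not overlap, but control libraries differed widely among themselves. The log2 fold was 0.68 ± 0.33 (SE) and did not pass the test (edgeR adjusted p = 0.181). nduo-1, of the ubiquinone pocket, stood at 241, 212 and 213 CPM in control and at 245, 240 and 262 in CDK-2gutminus. These ranges overlapped, and the log2 fold of 0.17 ± 0.11 (SE) was not called (edgeR adjusted p = 0.340).

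**Figure D1:**
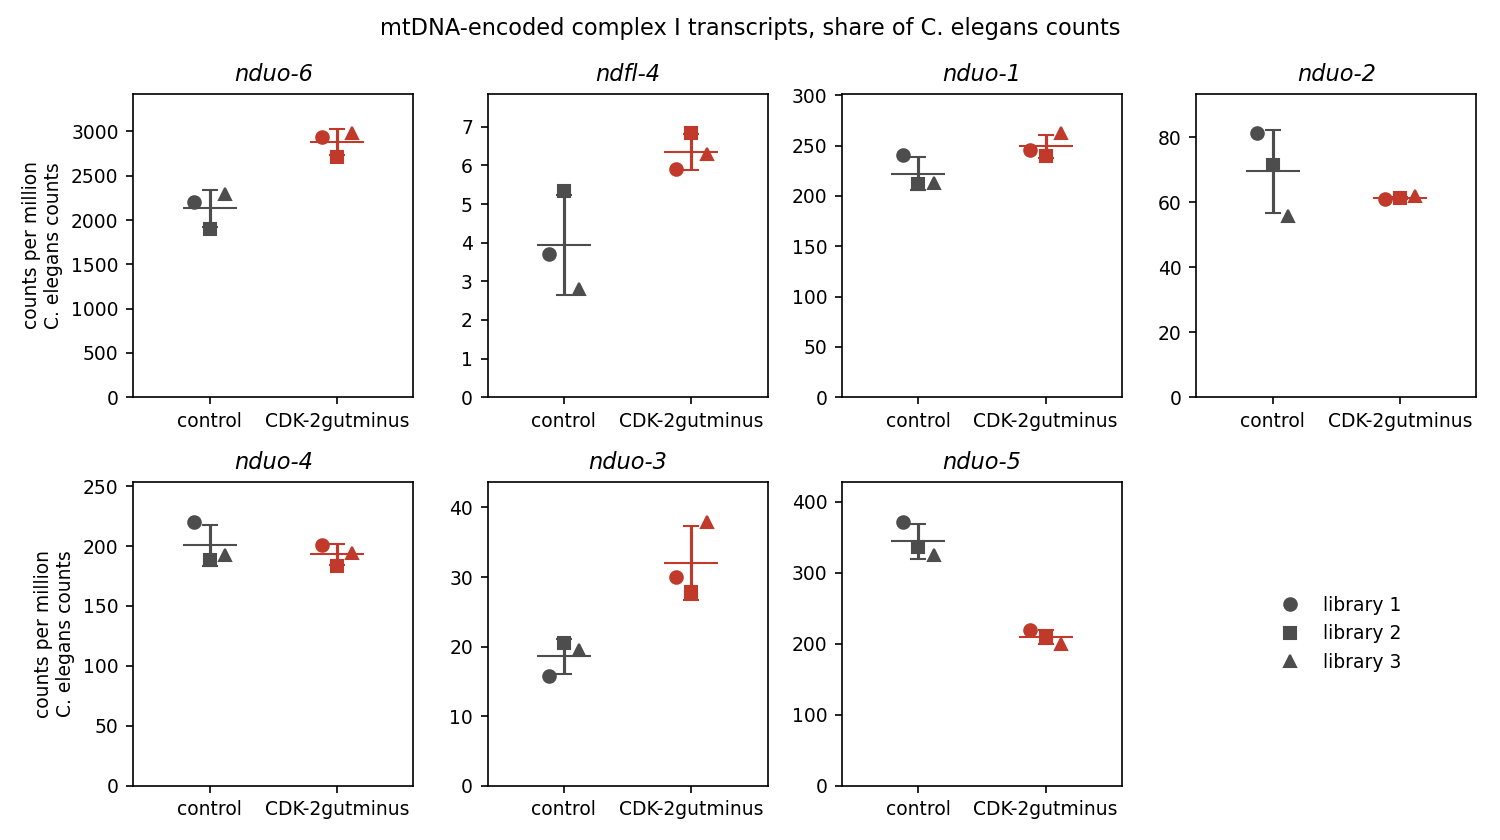
CPM of C. elegans counts (vertical axes, each starting at 0) of the 7 mtDNA-encoded complex I transcripts in the control and CDK-2gutminus libraries; points are libraries, horizontal bars the group mean and whiskers the SD (n = 3). The groups are separate for nduo-6, ndfl-4 and nduo-3, where CDK-2gutminus is higher, and for nduo-5, where it is lower, from 344 to 209 CPM.

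Set by role, the fitted log2 folds of the 3 small membrane subunits were all above 0, from 0.43 to 0.78, and those of the 3 antiporter-like subunits all below 0, from -0.72 to -0.06. Of these 6, 3 passed the test, so the order of the others is a description. The split by sign was not stable. nduo-4, at -0.06 ± 0.12 (SE), turned to 0.018 without control replicate 1. nduo-6 turned to -0.14 with DESeq2, described below. Gene length broadly followed the same order. The small subunits have RefSeq gene lengths of 234, 336 and 435 bases, nduo-1 has 876, and nduo-2, nduo-4 and nduo-5 have 849, 1230 and 1584. The part of length in these differences was not tested.

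The direction of several members depended on what was taken as the reference. Per C. elegans total, the median of all genes itself stood at a log2 fold of 0.50, and scaling with trimmed mean of M-values (TMM) factors lowered it by 0.40, to 0.10. Relative to that reference, nduo-5 was the only member called (log2 fold -1.14 ± 0.16, SE; edgeR adjusted p = 0.00201), where 6.84% of all genes were called lower. None was called higher, against 11.8% of all genes. nduo-6 then stood at 0.01 ± 0.20 (SE; edgeR adjusted p = 0.983) and nduo-3 at 0.38 ± 0.22 (SE; edgeR adjusted p = 0.307), and neither was called. nduo-1 changed sign, to -0.24. nduo-2 and nduo-4 stood at -0.58 and -0.47, with edgeR adjusted p of 0.0547 and 0.0972.

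DESeq2 with median-of-ratios size factors, which placed the median gene at -0.03, called 3 members lower and 0 higher, where it called 9.87% of genes lower and 11% higher. The 3 were nduo-5 at a log2 fold of -1.28, nduo-2 at -0.72 and nduo-4 at -0.61. With these size factors nduo-6 turned to -0.14 and nduo-1 to -0.39. nduo-5 was thus called lower by both tools and in all 3 of these scalings.

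**Figure D2:**
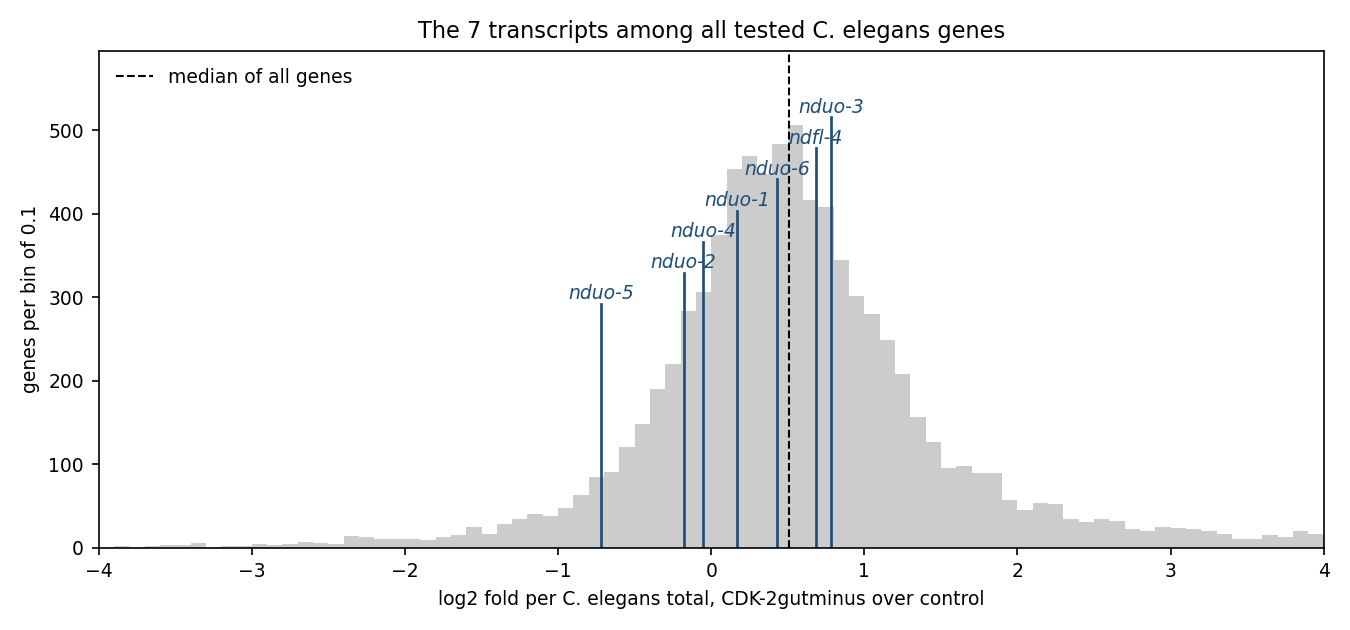
Histogram of the fitted log2 folds per C. elegans total of the 8309 tested genes (horizontal axis, CDK-2gutminus over control; vertical axis, genes per bin of 0.1; 251 genes lie outside the axis), with the 7 transcripts as labelled lines and the median of all genes dashed. Of the 7, 5 lie left of the median of 0.50, with nduo-5 at -0.72, and ndfl-4 and nduo-3 lie right of it.

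The second scale set each transcript against the spike-in. Per 1000000 P. pacificus counts, nduo-5 stood at 1992, 1519 and 902 in control libraries 1, 2 and 3 and at 1142, 960 and 554 in CDK-2gutminus. The groups overlapped and the values followed the library number, and CDK-2gutminus was lower within each number, by log2 differences of -0.80, -0.66 and -0.70. Across the groups the log2 fold was -0.73 ± 0.43 (SE) and did not pass the test (edgeR adjusted p = 0.376). nduo-6 stood at 11822, 8572 and 6375 in control and at 15252, 12509 and 8278 in CDK-2gutminus. It was higher within each number, by log2 differences of 0.37, 0.55 and 0.38, with a log2 fold across groups of 0.43 ± 0.38 (SE; edgeR adjusted p = 0.648).

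nduo-3 was the only member whose groups did not overlap per spike-in count, where 22.3% of all genes did not. It stood at 84.6, 92.2 and 54.2 per 1000000 P. pacificus counts in control and at 156, 129 and 105 in CDK-2gutminus. The log2 fold was 0.75 ± 0.55 (SE; edgeR adjusted p = 0.537), and the differences within numbers 1, 2 and 3 were 0.88, 0.48 and 0.96. ndfl-4, at 19.9, 24.1 and 7.74 in control and 30.7, 31.5 and 17.5 in CDK-2gutminus, was also higher within every number. nduo-1, nduo-2 and nduo-4 were higher within some numbers and lower within others, with log2 folds of 0.13, -0.24 and -0.08.

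With plain P. pacificus totals, all 6 libraries and no term for the library number, none of the 7 was called by edgeR or DESeq2. On this scale edgeR called 8.54% of all genes higher and 1.47% lower, and the shares for DESeq2 are not given here. Library numbers were taken as pairs here, since same-numbered libraries deviated together over P. pacificus genes (r = 0.57, 0.59 and 0.85). Numbers 1 and 2 correlated as highly when crossed, at 0.57 both ways. The pairing is therefore set by number 3 alone, and that within numbers 1 and 2 is arbitrary. With the number as a block, nduo-6 and nduo-3 were called higher and nduo-5 lower, where 18.9% of all genes were called higher and 2.97% lower. The blocked log2 folds were 0.43 ± 0.11 for nduo-6 (SE; edgeR adjusted p = 0.0441), 0.77 ± 0.19 for nduo-3 (SE; edgeR adjusted p = 0.0384) and -0.72 ± 0.12 for nduo-5 (SE; edgeR adjusted p = 0.0110). Mean C. elegans counts per P. pacificus count were 4.21 in control and 4.19 in CDK-2gutminus. Within numbers 1, 2 and 3 they differed by -0.046, 0.032 and 0.001 in log2. The blocked folds therefore nearly equal those per C. elegans total with the same block, 0.43, 0.78 and -0.72, and are not separate evidence. The blocked median of all genes was 0.58, above 5 of the 7 members. With TMM factors over P. pacificus genes and no block, nduo-3 alone was called higher, at 0.83 ± 0.23 (SE; edgeR adjusted p = 0.0386), against 16.4% of genes higher and 2.47% lower.

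Leaving out number 3 of both groups changed these calls. Per spike-in count nduo-5 was then called lower (log2 fold -0.74 ± 0.20, SE; edgeR adjusted p = 0.0384), and nduo-6 and nduo-3 were not called, at 0.45 and 0.69. Per C. elegans total, nduo-5 at -0.73 (edgeR adjusted p = 0.00731) and nduo-6 at 0.46 (edgeR adjusted p = 0.0315) were still called. nduo-3 was not, at 0.68 (edgeR adjusted p = 0.101). nduo-1, nduo-2, nduo-4 and ndfl-4 stood at 0.10, -0.32, -0.09 and 0.49 per C. elegans total and at 0.08, -0.34, -0.10 and 0.50 per spike-in count, and none of them was called.

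**Figure D3:**
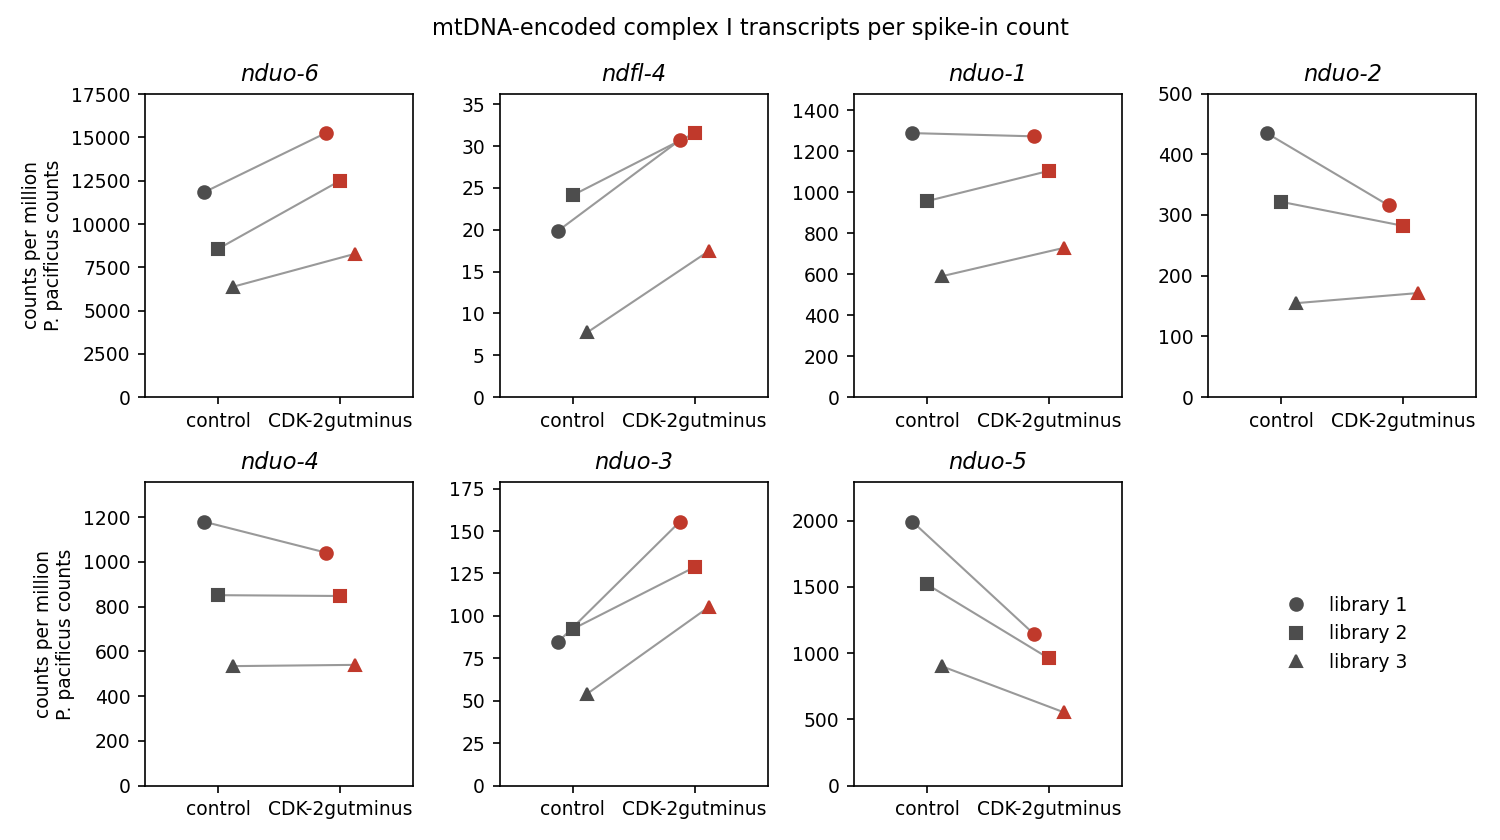
Counts per 1000000 P. pacificus counts (vertical axes, each starting at 0) of the 7 transcripts; points are libraries, and lines join the control and CDK-2gutminus libraries of the same number. Within each group number 3 is lowest in every panel, and all 3 lines fall for nduo-5 and rise for nduo-6, ndfl-4 and nduo-3.

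**Figure D4:**
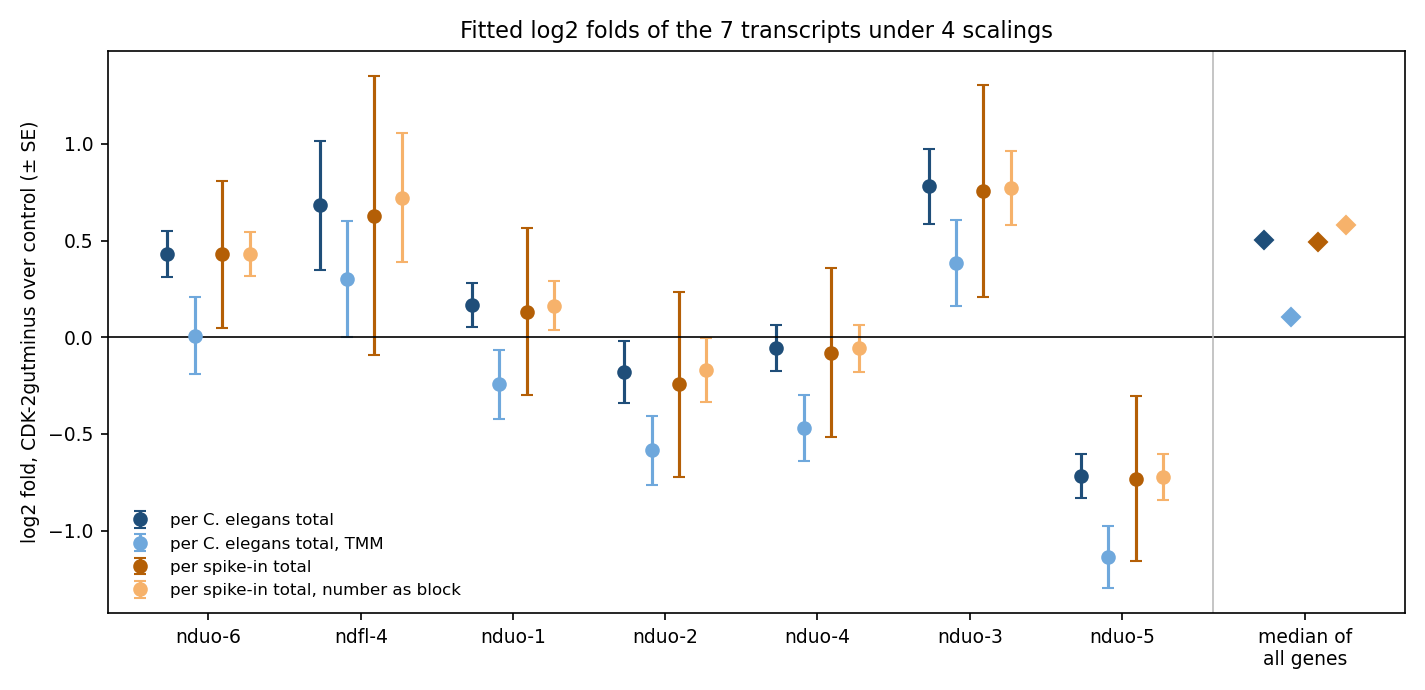
Fitted log2 folds of CDK-2gutminus over control (vertical axis; whiskers are ± SE) for the 7 transcripts under 4 scalings, with the median of all 8309 genes as diamonds. nduo-5 lies below 0 under all 4, from -1.14 to -0.72, whereas nduo-6 moves from 0.43 to 0.01 with TMM factors over C. elegans genes, and the whiskers per spike-in total shorten once the library number is a block.

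Summed, the 7 transcripts took a larger share of C. elegans counts in CDK-2gutminus, and this rested on nduo-6. The sum made up 0.314%, 0.273% and 0.311% of C. elegans counts in control libraries 1, 2 and 3 and 0.370%, 0.344% and 0.374% in CDK-2gutminus. The means were 0.299% ± 0.0226 and 0.363% ± 0.0165 (SD, n = 3), a ratio of 1.21. Without nduo-6 the order of the groups turned around. The other 6 transcripts made up 0.0934%, 0.0834% and 0.0808% in control and 0.0763%, 0.0727% and 0.0762% in CDK-2gutminus, a ratio of 0.874. These 6 did not fall as a set. nduo-5, the most counted of them in control, went from 344 to 209 CPM. nduo-4 went from 201 to 193 and nduo-2 from 69.4 to 61.2 CPM. The means of nduo-1, nduo-3 and ndfl-4 rose, from 222 to 249, 18.6 to 32.0 and 3.95 to 6.35 CPM. Against a C. elegans total without its 10 most abundant genes, none of which is a member, the summed 7 transcripts differed by -0.02 in log2 instead of 0.28.

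Per 1000000 P. pacificus counts, the sum held 12592 ± 4108 in control and 15156 ± 4450 in CDK-2gutminus (SD, n = 3). The ratio within numbers 1, 2 and 3 was 1.14, 1.29 and 1.21. The groups overlapped, with number 3 lowest in either group. Without nduo-6 the ratios within numbers were 0.792, 0.891 and 0.944.

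The proportions among the 7 transcripts are free of any choice of library scaling, and for 5 of the 7 the libraries of the groups did not overlap. No like figure over all genes is available for such shares. nduo-5 made up 11.8%, 12.3% and 10.5% of the summed counts in control and 5.94%, 6.05% and 5.33% in CDK-2gutminus. nduo-6 made up 70.3%, 69.5% and 74.0% in control and 79.4%, 78.9% and 79.6% in CDK-2gutminus. The groups were separate for both. All 7 shares are tied, because nduo-6 dominates the sum and a rise of nduo-6 alone lowers every other share. nduo-4 went from 6.70% ± 0.441 to 5.32% ± 0.117 and nduo-2 from 2.33% ± 0.462 to 1.69% ± 0.0762, while nduo-3 went from 0.626% ± 0.122 to 0.879% ± 0.117 (SD, n = 3), each without overlap. In CPM, by contrast, the groups overlapped for nduo-4 and nduo-2, at ratios of CDK-2gutminus to control of 0.963 and 0.882.

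Relative to the other 6 members of the same library, the log2 difference was -1.09 for nduo-5, -0.45 for nduo-2 and -0.35 for nduo-4. It was 0.50 for nduo-3 and 0.63 for nduo-6. Except for nduo-6 itself, these values are set mainly against nduo-6, which dominates the sum of the others. For these 5 a two-sided exact permutation test gave p = 0.1 and 0.14 after adjustment over the 7 transcripts. As 3 against 3 libraries cannot give a p below 0.1, this test could not have passed 0.05 and only restates that the groups were separate. For ndfl-4 and nduo-1, whose shares overlapped between groups, the exact permutation p was 0.3.

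**Figure D5:**
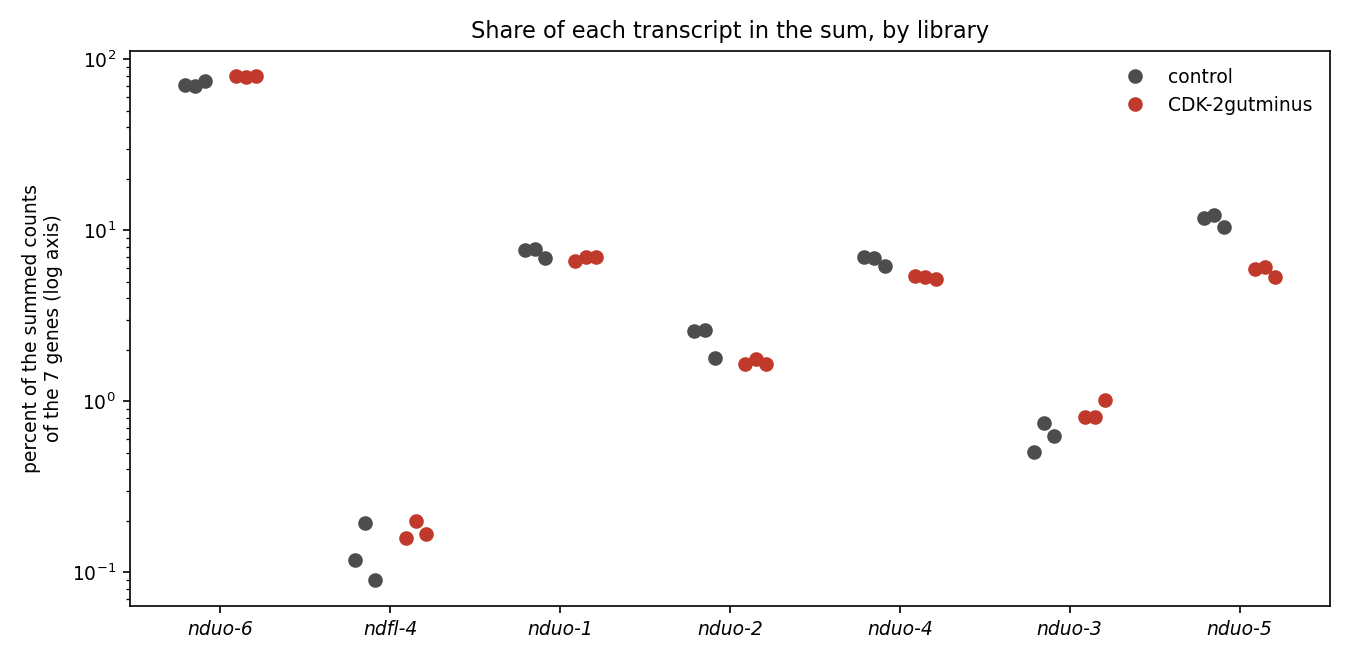
Percent of the summed counts of the 7 genes taken by each (vertical axis, log scale), with points for the 3 libraries of each group. nduo-5 goes from 11.5% to 5.78% of the sum and nduo-6 goes from 71.2% to 79.3%, while the points of ndfl-4 and nduo-1 overlap between groups.

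nduo-3 and nduo-5 are neighbours on the mitochondrial genome and were called in opposite directions per C. elegans total. The ratio of nduo-3 to nduo-5 counts was 0.0425, 0.0607 and 0.0601 in control libraries and 0.136, 0.134 and 0.190 in CDK-2gutminus, a ratio of means of 2.82. No CDK-2gutminus library came near the control range. nduo-6 and ndfl-4, the other pair of adjacent members, differed far more in counts from each other than between strains. nduo-6 held 355 to 824 counts per ndfl-4 count in control and 397 to 496 in CDK-2gutminus, and these ranges overlapped. Whether counting used strand is not stated by the labels or the table, and reads that span adjacent genes may be counted for neither. Whether the neighbours of a pair are carried on separate RNAs was not tested.

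Divided by RefSeq gene length, the counts of the 7 transcripts covered a wide range. In CPM per kilobase, nduo-6 stood at 4908 ± 479 in control (SD, n = 3), followed by nduo-1 at 253 ± 18.7, nduo-5 at 217 ± 15.5 and nduo-4 at 163 ± 14.1. nduo-2 at 81.8 ± 15.1, nduo-3 at 55.3 ± 7.32 and ndfl-4 at 16.9 ± 5.53 were lowest. Neighbours in this order did not overlap between libraries. nduo-6 thus stood 19.4 times above the next transcript in counts per kilobase. How evenly reads of the different genes were captured and mapped was not tested, so this order need not be that of transcript amounts.

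In CDK-2gutminus the order of counts per kilobase changed at 2 places. nduo-4, at 157 ± 7.01 CPM per kilobase, stood above nduo-5, at 132 ± 6.46, and nduo-3, at 95.1 ± 15.8, stood above nduo-2, at 72.1 ± 0.531 (SD, n = 3). Neighbours in the new order did not overlap either. nduo-6 at 6615 ± 334 and nduo-1 at 284 ± 13.6 stayed first and second, and ndfl-4 stayed last at 27.1 ± 1.97. The labels name no assembly for the deposited counts, so the lengths are those of RefSeq and may differ from those used in counting.

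Between the first and the last member in identifier number lie 4 other genes, whose identifiers are not paired with names in the sources used here, and their directions were mixed as well. WBGene00010965 rose 1.76-fold per C. elegans total (edgeR adjusted p = 0.00207) and WBGene00010962 fell to 0.698 times control (edgeR adjusted p = 0.0119). WBGene00010960, at a log2 fold of 0.28, and WBGene00010964, at -0.06, were not called. Of these, the call of WBGene00010962 was kept with TMM factors, at a log2 fold of -0.94 (edgeR adjusted p = 0.00991), and with DESeq2. WBGene00010965 was not called with TMM factors, at 0.40 (edgeR adjusted p = 0.234), or by DESeq2, at 0.25 (adjusted p = 0.579). DESeq2 called WBGene00010964 lower, at -0.62 (adjusted p = 0.0103). Per plain spike-in total none of the 4 was called, with an edgeR adjusted p of 0.218 for WBGene00010965 and 0.568 for WBGene00010962. With the number as a block, WBGene00010965 was called higher (log2 fold 0.81; edgeR adjusted p = 0.00584) and WBGene00010962 lower (-0.52; edgeR adjusted p = 0.0282). With TMM factors over P. pacificus genes, WBGene00010965 alone was called (0.86; edgeR adjusted p = 0.00412). Together these 4 took 0.992% ± 0.0596 of C. elegans counts in control and 0.974% ± 0.0399 in CDK-2gutminus (SD, n = 3). For each count of these 4 genes the 7 complex I transcripts held 0.302 ± 0.0128 counts in control and 0.372 ± 0.00645 in CDK-2gutminus (SD, n = 3), without overlap. This rise too rested on nduo-6, which held 71.2% of the summed 7 in control and 79.3% in CDK-2gutminus. Without nduo-6 the complex I transcripts went from 0.0859% to 0.0751% of C. elegans counts.

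The members differed in profile. Over the 6 libraries, the log2 level of nduo-5 ran against the mean of the other members (Pearson r = -0.89), and that of nduo-1 ran with it (r = 0.82). The genes whose profile was most like the mean of the 7 were WBGene00013128 (r = 0.99 over 6 libraries) and WBGene00006580 (r = 0.99). Both were rare, at no more than 2.84 CPM in any library, and 461 of 8298 genes had an r above 0.9. These correlations describe 6 libraries that share their scaling and strain and carry no test.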

How the data were processed

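Per the labels' protocols, total RNA of the mixed lysates went into a low-input library kit and was read from both ends. The authors deposited raw whole-number counts per gene for both species, without normalization. The submitters' processing notes name the aligner STAR and the counting tool featureCounts without versions; no genome build or strand setting is stated. Per the name of the deposited table, multi-mapping reads were left out, which can lower counts of genes with near-identical copies.

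Rows 1 to 46958 were taken as C. elegans and the later 26310 rows as P. pacificus, a boundary inferred earlier from these counts and not stated in the table. The size of the RefSeq gene table, 46926, was tried as another boundary and moved 4011 counts. 0 of the identifiers occur in that table, so planned lists of nuclear complex I genes, mtDNA maintenance genes and tissue markers were not analysed.

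Genes were kept with filterByExpr and tested with edgeR 4.0.16 (R 4.3.3) robust quasi-likelihood fits, group as the only term, with Benjamini-Hochberg adjustment over 8309 genes. Library sizes were plain C. elegans or plain P. pacificus totals. Each standard error is the size of the log2 fold over the root of its F statistic. DESeq2 1.42.0 was an alternative, and its adjusted p was given for 8301 genes. Profiles were compared on log2 CPM with a prior count of 2. Named genes were the members, the 4 other identifiers in their run of numbers and the 2 genes of most similar profile. The members, lists and tests were chosen with earlier results of these data known. At the depths of these libraries counting error was at most 18.9%, for ndfl-4, and covers counting only.

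Pairing by library number was checked by correlating deviations from group means, against a threshold of 0.1. Over 6645 P. pacificus genes same-numbered libraries correlated at 0.57, 0.59 and 0.85, so the numbers were taken as pairs for the spike-in scale. Numbers 1 and 2 correlated as highly when crossed, at 0.57 both ways. Over C. elegans genes they correlated at 0.11, -0.05 and 0.20, and the numbers were not taken as pairs.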

Additional observations from a re-analysis of the deposited data

How the results depend on the processing

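Per C. elegans total, 2 members were called higher and 1 lower, where 22% of all genes were called higher and 3.61% lower. The number called higher was 0 with TMM factors, with DESeq2 and with a total without the 10 most abundant genes, 1 without number 3 of both groups, and 0 to 2 when single libraries were left out. DESeq2 called 3 lower. Per spike-in total, 0 were called; TMM factors gave 1 higher, the replicate block gave 2 higher and 1 lower, and leaving out number 3 of both groups gave 1 lower. Leaving out single libraries gave 0 throughout on this scale. The replicate block left the calls per C. elegans total at 2 higher and 1 lower, where 18.6% of all genes were called higher and 2.94% lower. For the fits that left out libraries or the 10 most abundant genes, shares over all genes are not given here. Their counts of calls cannot be set against a background.

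Some log2 folds changed sign, among them that of nduo-6, which was called higher per C. elegans total at 0.43. Per C. elegans total, nduo-1 stood at -0.24 with TMM factors, -0.39 with DESeq2 and -0.14 without the 10 most abundant genes, nduo-6 at -0.14 with DESeq2, and nduo-4 between -0.097 and 0.018 over the fits that each dropped 1 library. Per spike-in total, single libraries left out gave nduo-1 from -0.12 to 0.42, nduo-2 from -0.56 to 0.11 and nduo-4 from -0.33 to 0.22. nduo-1 was at -0.04 without CDK-2gutminus replicate 1, and nduo-4 at 0.14 without CDK-2gutminus replicate 3. The log2 difference of the summed members, 0.28 per C. elegans total, turned to -0.02 against a total without the 10 most abundant genes. With nduo-6 left out, an alternative chosen after seeing the data, it was -0.19 per C. elegans total and -0.20 per spike-in count. Leaving out libraries lowers power by construction; for the other shifts the cause was not tested.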
